A study of Mus musculus with 2 samples.

Results

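DNA replication licensing and fork genes are the genes whose products mark replication origins, load the replicative helicase and copy the DNA at moving forks. They were described here in the embryonic mouse forebrain at 11.5 days, from the strain B6NCrl. The 39 genes were a fixed list of symbols, looked up by stable gene identifier, and all 39 were found among the 43346 annotated genes of the tables. The data were 2 total RNA-seq libraries of 1 group, healthy tissue of mixed sex with no treatment and no genetic change named in the labels: replicate 1 came from a pool of 109 embryos and replicate 2 from a pool of 88. Both pools carry the same donor label, and each library was made from 10 ng of RNA longer than 200 nucleotides. The spread given below is therefore that between 2 large pools, which hides differences between embryos, and no condition was compared.

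Replication is prepared in G1, when the origin recognition complex (ORC) binds origins and, with Cdc6 and Cdt1, loads the ring-shaped MCM2-7 helicase around DNA. In S phase cyclin-dependent kinases and further factors, among them Cdc45 and the GINS complex, turn the loaded ring into an active helicase. Replication factor C (RFC) then loads the PCNA clamp, and polymerases alpha, delta and epsilon copy the strands. Many of these genes are known targets of E2F factors, which act late in G1. At this age the forebrain wall consists largely of dividing progenitors, which replicate their DNA in every cycle, and of the first postmitotic neurons.

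Because E2F control is the known link between these genes, their promoters were searched for 4 E2F words, TTTCCCGC, TTTGGCGC, TTTCGCGC and TTTGCCGC, on either strand. RefSeq promoters (GRCm38.p6, 250 bases before to 50 after the start) were matched for 30 of the 39 genes; Mcm4, Gins1, Gins2, Gins4, Rfc2, Prim2, Pole, Gmnn and Ccne2 had no entry. A word was found in 13 of the 30 genes (43.3%), against 704 of all 27025 genes in the same table (2.61%). TTTCCCGC was found in 7 genes, TTTCGCGC in 6, TTTGGCGC in 5 and TTTGCCGC in none. These words overlap in some promoters, and a match describes letters only, with no measure of binding in these data. Only exact matches were searched, so a gene without a match may still hold a variant of these words.

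The 9 genes with a word before the RefSeq start are shown because they carry this pattern across the complexes. For 4 of them the 180 bases before the start are given 5′ to 3′ on the gene's strand, with E2F words in capitals. Mcm5 (chr8:75109329-75109508, plus strand) and Mcm6 (chr1:128359706-128359885, minus strand) encode helicase subunits. Pola1 (chrX:93632156-93632335, minus strand) encodes the catalytic subunit of polymerase alpha, and Cdc6 (chr11:98907971-98908150, plus strand) a helicase loader. Mcm2 (chr6:88898781-88898960, minus strand) and Rrm2 (chr12:24708074-24708253, plus strand), the gene with the highest level, are shown for contrast as promoters with none of the words.
Mcm5: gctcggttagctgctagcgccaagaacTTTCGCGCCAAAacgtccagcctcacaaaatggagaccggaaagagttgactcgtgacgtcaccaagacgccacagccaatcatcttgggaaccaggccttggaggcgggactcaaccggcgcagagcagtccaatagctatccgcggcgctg
Mcm6: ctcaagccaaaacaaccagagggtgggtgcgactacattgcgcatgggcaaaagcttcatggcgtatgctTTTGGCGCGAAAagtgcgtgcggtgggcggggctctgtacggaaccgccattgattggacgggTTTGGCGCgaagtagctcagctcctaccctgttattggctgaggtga
Pola1: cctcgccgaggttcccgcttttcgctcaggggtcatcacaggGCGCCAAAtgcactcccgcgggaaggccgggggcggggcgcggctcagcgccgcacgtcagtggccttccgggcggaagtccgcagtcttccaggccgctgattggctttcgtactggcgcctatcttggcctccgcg
Cdc6: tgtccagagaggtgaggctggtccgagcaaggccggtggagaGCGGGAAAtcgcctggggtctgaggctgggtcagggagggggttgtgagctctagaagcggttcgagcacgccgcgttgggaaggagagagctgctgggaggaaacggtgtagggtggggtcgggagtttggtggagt
Mcm2: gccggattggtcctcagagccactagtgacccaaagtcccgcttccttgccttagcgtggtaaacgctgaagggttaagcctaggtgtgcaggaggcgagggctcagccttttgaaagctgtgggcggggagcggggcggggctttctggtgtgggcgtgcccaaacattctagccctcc
Rrm2: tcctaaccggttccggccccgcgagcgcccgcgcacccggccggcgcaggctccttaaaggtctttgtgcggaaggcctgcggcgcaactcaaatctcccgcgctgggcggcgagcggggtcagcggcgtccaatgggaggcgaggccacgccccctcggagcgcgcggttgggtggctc
In Mcm5 and in Mcm6 a TTTCGCGC and a TTTGGCGC on opposite strands share bases, which gives the longest runs of capitals. Mcm6 held a further TTTGGCGC that begins 47 bases before the start. For the other 5 genes the 30 bases around the word are given.
Orc1: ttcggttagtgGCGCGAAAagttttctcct
Orc3: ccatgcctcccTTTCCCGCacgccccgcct
Mcm7: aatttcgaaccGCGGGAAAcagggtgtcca
Gins3: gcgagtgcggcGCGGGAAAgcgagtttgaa
Rfc3: acgtcgcacgcTTTCGCGCtcGCGGGAAAa
These sites lie at chr4:108579416-108579445 (plus strand), chr4:34614965-34614994 (minus), chr5:138172030-138172059 (minus), chr8:95633507-95633536 (plus) and chr5:151651200-151651229 (minus), in the order shown. Counted from the RefSeq start, the word lay 27 bases before it in Orc1, 41 in Orc3 and in Gins3, 165 in Mcm7 and 10 in Rfc3. By GENCODE M21 some of these genes start further upstream. The words before the RefSeq start of Orc1, Mcm7, Gins3 and Rfc3 then lie in an exon of the gene itself. That of Cdc6 then lies within its gene. Of the 180 bases before the RefSeq start, such exons cover 180 in Mcm7, 106 in Gins3, 34 in Rfc3 and 31 in Orc1. In Mcm3, Pold1, Cdt1 and Lig1 the words lay only after the RefSeq start.

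**Figure D1:**
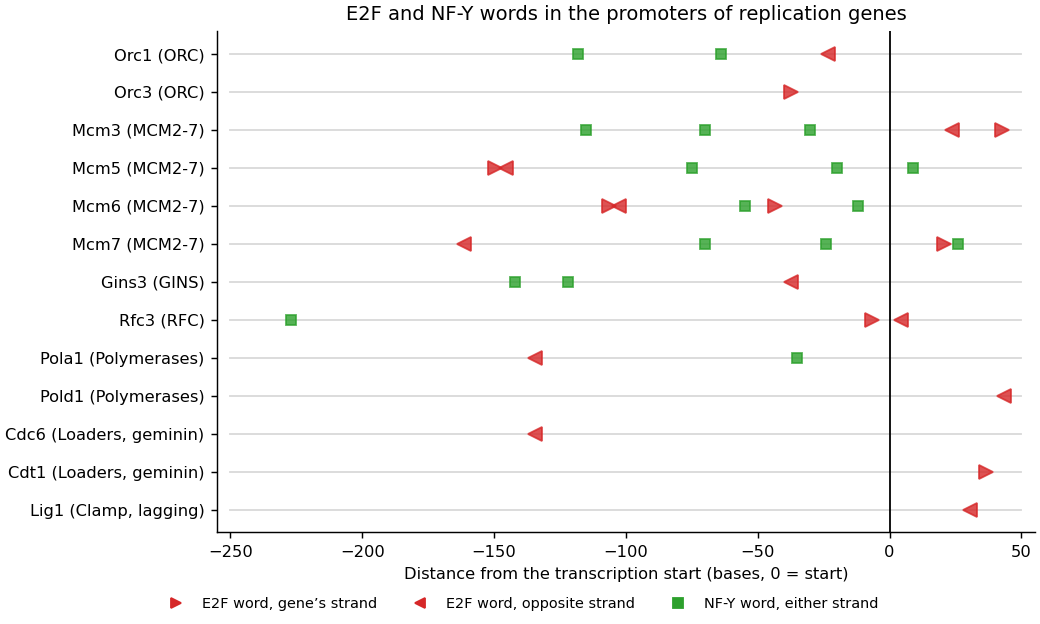
Position of E2F words (red triangles, pointing right on the gene's strand and left on the opposite strand) and NF-Y words (green squares) in 13 genes. Each promoter runs from 250 bases before to 50 bases after the RefSeq start. Only promoters that hold an E2F word are drawn. Words before the start are seen in 9 genes, and the overlapping pairs in Mcm5 and Mcm6 appear as triangles that touch.

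By complex, 4 of the 5 MCM2-7 genes with an entry held an E2F word, Mcm2 being the exception. The share was 2 of 6 for ORC, 1 of 4 for RFC, 2 of 4 for the polymerases, 1 of 1 for GINS, 2 of 2 for Cdc6 and Cdt1, and 1 of 3 for Pcna, Fen1 and Lig1. It was 0 of 2 for Cdc45 and Mcm10, 0 of 2 for ribonucleotide reductase and 0 of 1 for cyclin E. CCAAT, the word bound by NF-Y, was found in 19 of 30 genes (63.3%), against 41.1% of all genes. TTTGAA, the core of the cell cycle homology region of late cell cycle genes, was found in 4 of 30 (13.3%), against 20.2% of all genes. The ranges of level overlapped between genes with and without an E2F word: the median of the mean TPM was 109 over the 13 genes with a word (range 16.0 to 293) and 94.1 over the 17 without (range 37.5 to 515). TPM is a relative transcript level scaled by transcript length and depth, so that it can be compared between genes.

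All 39 genes were expressed at 1 TPM or more in both libraries. They reached 50 TPM or more in both libraries in 30 cases and 100 TPM or more in 17. Their median was 91.7 TPM in replicate 1 and 96.5 TPM in replicate 2, against 20.6 TPM in each for the 12581 protein-coding genes at 1 TPM or more in both. By mean TPM, 24 of the 39 stood in the highest 10% of all 21474 protein-coding genes. Together they held 0.470% and 0.471% of all TPM. The standard deviation (SD) between the 2 libraries was 2.89% of the mean for the median gene, from 0.094% for Orc5 to 13.0% for Pola1, and under 5% for 25 genes. Errors below are SD with n = 2. Levels over coding transcripts, which leave out transcripts of non-coding types and keep untyped ones, are given where they change the order of genes; they were added after seeing the data. In bulk tissue, a gene's level cannot tell the share of cells that use the gene from its RNA per cell.

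**Figure D2:**
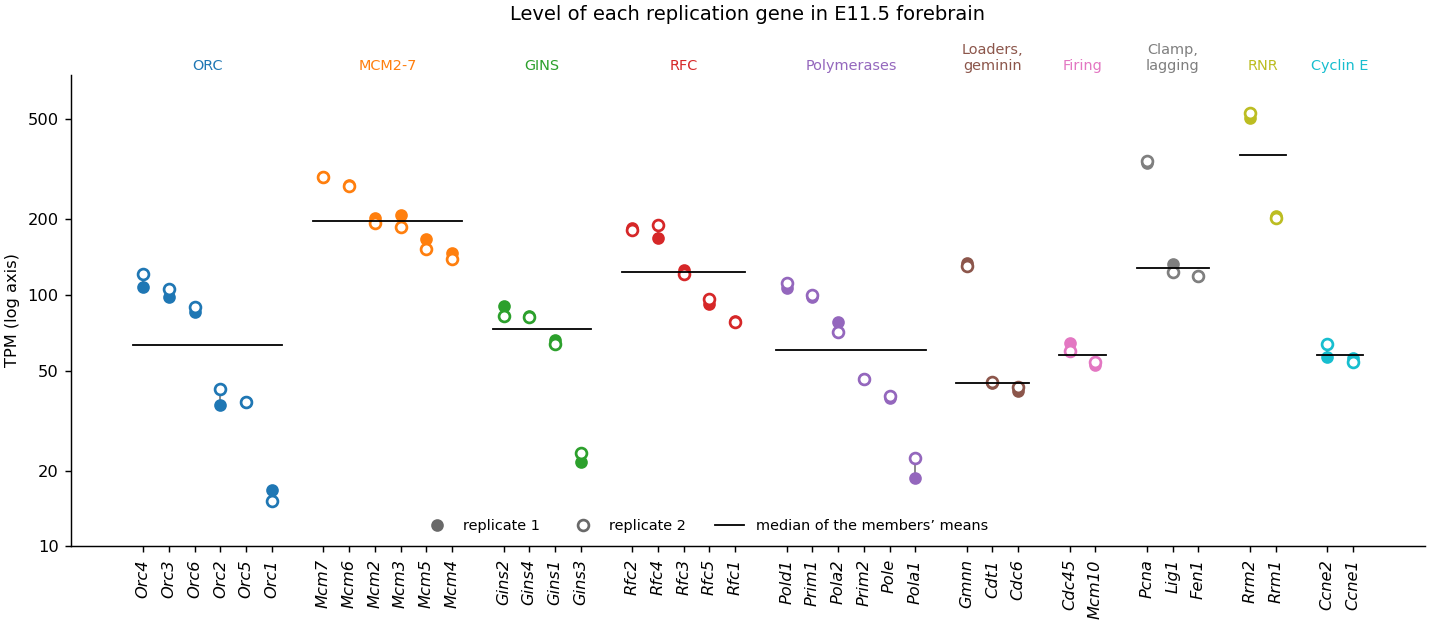
TPM (log axis) of each of the 39 genes in replicate 1 (filled) and replicate 2 (open), grouped by complex or role and ordered by mean, with a black line at the group's median (RNR, ribonucleotide reductase). The 6 MCM2-7 genes lie between 139 and 294 TPM, whereas ORC, GINS and the polymerases each hold a gene near or below 20 TPM.

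ORC binds origins and holds the ATPase subunits that close the MCM ring onto DNA. Its 6 genes spread widely. Orc4 was highest as a gene, at 107 TPM in replicate 1 and 121 TPM in replicate 2. It was followed by Orc3 (101 ± 5.1 TPM) and Orc6 (87.5 ± 2.71 TPM), which is the small subunit less tightly bound to the rest. Orc2 was read at 36.6 and 42.1 TPM and overlapped in range with Orc5 (37.5 ± 0.035 TPM), so that their order is not resolved. Orc1, the ATPase that is regulated through the cell cycle, was lowest, at 16.7 and 15.2 TPM (chr4:108579423-108614833). It was the lowest of all 39 genes and stood at percentile 66.6 of protein-coding genes. The ratio of Orc4 to Orc1 was 6.42 and 7.93 in the 2 libraries. Over coding transcripts it was 1.95 and 2.71, since Orc4 then had 28.1 and 36.4 TPM, overlapping with Orc5 (30.8 and 32.3 TPM), and Orc6 was highest. Every other neighbouring pair of ORC genes had ranges that did not overlap.

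MCM2-7 is the helicase ring, built from 1 copy of each of 6 related subunits. Its genes were high and even. Mcm7 was highest, at 293 and 294 TPM, and Mcm6 followed at 271 ± 0.615 TPM, nearly the same in both libraries. Mcm2 was read at 202 and 193 TPM and Mcm3 at 208 and 187 TPM; their ranges overlap and their order changed between the libraries. Over coding transcripts Mcm3 had 164 and 150 TPM, below Mcm2 and overlapping with Mcm5. Mcm5 had 167 and 152 TPM. Mcm4 was lowest, at 146 and 139 TPM, so that the highest stood 2.06 ± 0.076 times above the lowest. This was the narrowest range among the 5 complexes: the same ratio was 2.38 in RFC, 3.82 in GINS, 5.32 in the polymerases and 7.18 in ORC. Over coding transcripts it was 1.93 in MCM2-7, 3.62 in GINS, 4.65 in the polymerases and 6.31 in ORC. In RFC it was 2.70 with the untyped transcripts of Rfc1 kept.

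Firing of the loaded helicase needs GINS, a complex of 4 subunits, with Cdc45 and Mcm10. Gins2 was highest of the 4 as a gene, at 90.1 and 82.0 TPM, and its range overlapped with that of Gins4 (81.8 ± 0.70 TPM). Gins1 had 65.1 ± 1.88 TPM. Gins3 was lowest, at 21.7 and 23.5 TPM. Over coding transcripts Gins2 was nearly as low, at 25.9 and 23.6 TPM, so that on this measure 2 subunits lay below Gins1 (59.4 ± 0.863 TPM) and Gins4 (81.8 ± 0.70 TPM). Cdc45, the third part of the active helicase, was read at 64.5 and 59.7 TPM. Mcm10, which acts when the helicase is activated, was lower, at 52.7 and 53.9 TPM. Both lay below each MCM2-7 gene, and the ratio of Mcm2 to Cdc45 was 3.18 ± 0.07.

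RFC opens PCNA and sets it on DNA; Rfc1 is its large subunit. Rfc2 was highest, at 184 and 180 TPM, and its range overlapped with that of Rfc4 (178 ± 14.8 TPM). Rfc3 stood in the middle (123 ± 2.89 TPM), followed by Rfc5 (94.1 ± 3.43 TPM). Rfc1 was lowest as a gene, at 78.5 and 78.1 TPM, below the 4 small subunits, which alternative clamp loaders also use. Over coding and untyped transcripts Rfc5 was lower, at 68.0 and 67.1 TPM. Rfc1 kept its level there only because its untyped transcripts were kept. Its transcript typed as protein coding had 12.6 and 12.2 TPM, so the order of Rfc1 and Rfc5 on this measure depends on that choice.

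The polymerase group comprised the alpha-primase genes Pola1, Pola2, Prim1 and Prim2 and the catalytic subunits of delta (Pold1) and epsilon (Pole). Pold1, which copies mainly the lagging strand, was highest as a gene, at 107 and 111 TPM. Over coding transcripts it had 71.3 and 78.0 TPM, below Prim1 (89.0 and 92.1 TPM) and within the range of Pola2. Pole, which copies mainly the leading strand, was read at 38.9 and 39.6 TPM, a ratio of 2.77 ± 0.04 between them. Within alpha-primase the 4 subunits were uneven. The catalytic primase subunit Prim1 had 99.0 ± 1.67 TPM and its partner Prim2 46.3 ± 0.24 TPM. Pola2, the accessory subunit, had 78.3 and 70.9 TPM. The catalytic subunit Pola1 was lowest, at 18.7 and 22.5 TPM, and the ratio of Prim1 to Pola1 was 5.24 and 4.46. The gene lies on chromosome X (93304767 to 93632155) and has the greatest mean transcript length of the group.

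**Figure D3:**
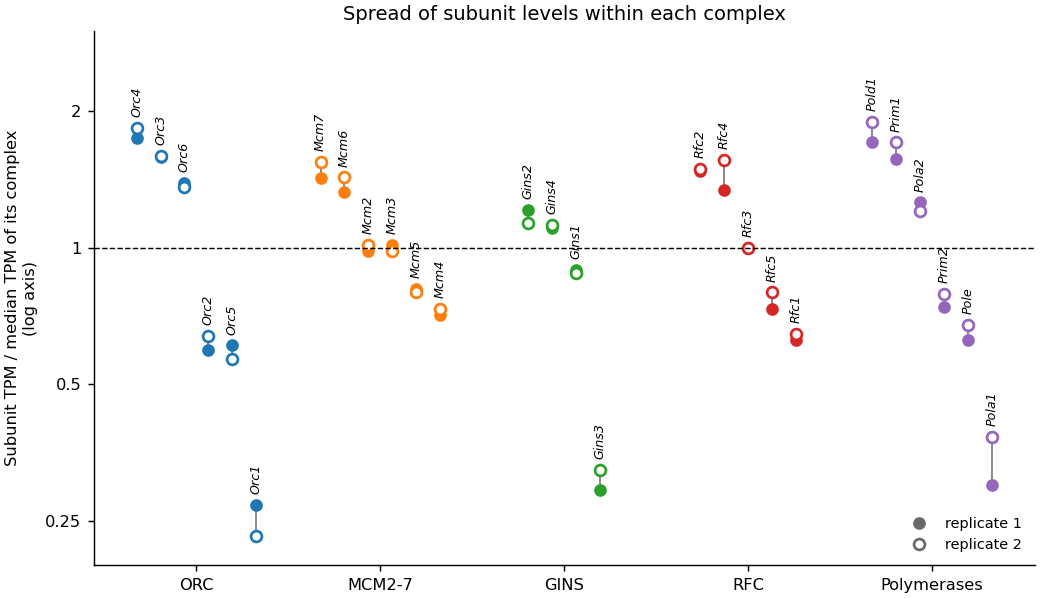
TPM of each subunit divided by the median TPM of its complex (log axis), in replicate 1 (filled) and replicate 2 (open), with a dashed line at 1. Mcm4 lies at 0.723 times its complex's median, whereas Orc1 (0.251), Gins3 (0.308) and Pola1 (0.342) lie far below theirs.

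Compared as complexes, MCM2-7 stood above the other 4. The median TPM of its genes was 205 in replicate 1 and 190 in replicate 2. That was 3.33 and 2.88 times the median of ORC, 2.76 and 2.62 times that of GINS, 1.64 and 1.57 times that of RFC, and 3.29 and 3.23 times that of the polymerases. As differences of the median log2(TPM + 1), MCM2-7 exceeded ORC by 1.72 ± 0.159, GINS by 1.42 ± 0.052, RFC by 0.68 ± 0.045 and the polymerases by 1.73 ± 0.032. Without Rfc1, the difference from RFC was 0.43. In both libraries all 6 MCM2-7 genes lay above the highest gene of ORC, of GINS and of the polymerases, and 3 of 6 lay above the highest RFC gene. RFC came next, at 1.05 ± 0.012 above the polymerases. ORC and the polymerases were not told apart: the difference of ORC minus polymerases was -0.083 in replicate 1 and 0.096 in replicate 2. With 1 group of 2 libraries these differences are descriptions and carry no test. When transcripts of non-coding types were left out, MCM2-7 exceeded GINS by 2.18, over 1.5 times the value above, with Gins2 then at 24.8 ± 1.68 TPM; GINS then lay 0.48 below the polymerases in place of 0.31 above them.

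The helicase loaders Cdc6 and Cdt1 were close to each other. Cdt1, which brings the MCM ring to ORC, was read at 44.5 and 44.9 TPM. Cdc6, an ATPase related to Orc1, was the lowest of its group at 41.6 and 43.1 TPM. Geminin (Gmnn), the inhibitor that binds Cdt1 after origins have fired, was higher, at 134 and 131 TPM. Its transcript exceeded that of its target 2.96 ± 0.065 times. These are RNA levels; both proteins are known to be degraded at set times in the cycle, which these data do not measure.

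At the fork, the sliding clamp Pcna had 333 and 340 TPM, second among the 39 genes to Rrm2. The ligase Lig1, which seals Okazaki fragments, had 133 and 123 TPM. The flap nuclease Fen1, which trims them, had 119 TPM in each library and was lowest of the 3 as a gene. Over coding transcripts Lig1 was lowest, at 97.0 and 102 TPM. Ribonucleotide reductase supplies the deoxynucleotides: its small subunit Rrm2, made in S phase, was the highest gene of all, at 502 and 528 TPM, and its large subunit Rrm1 was read at 205 and 202 TPM. Rrm2b, the p53-linked alternative small subunit, had 7.16 ± 0.566 TPM, so that Rrm2 exceeded it 72.1 ± 3.11 times. The E cyclins, which activate Cdk2 before S phase, were close in level. Ccne1 had 56.1 and 54.3 TPM, and Ccne2 56.5 and 63.8 TPM, a ratio of 1.09 ± 0.119; the ranges lay next to each other, and overlapped over coding transcripts (55.1 and 52.6 TPM for Ccne1, 53.0 and 61.9 TPM for Ccne2).

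The 2 libraries were compared by an exact two-sided binomial test of rounded expected counts, scaled by TMM library sizes (edgeR), with Benjamini-Hochberg adjustment over 18297 genes with 10 or more counts. Such a test compares these libraries beyond counting error, not conditions. Of the 39 genes, 12 passed (adjusted p under 0.05), 30.8%, against 23.5% of all genes tested and 34.9% of genes with 1000 or more counts, a class that holds all 39. The share lay between both backgrounds and is not a result about these genes. Higher in replicate 1 were 5 genes, against a background of 11.4%, and higher in replicate 2 were 7, against 12.1%. No gene of the list passed with a log2 ratio of 0.32 or more in either direction, where 2.36% of the genes with 1000 or more counts did. The median log2 ratio of replicate 2 to replicate 1 was 0.01 over the 39 genes and -0.00022 over all genes tested. With spike-in counts as the scale, 14 passed, against 25% of all genes tested. Of these, 3 were higher in replicate 1 (7.35% of all genes) and 11 in replicate 2 (17.6% of all genes). This scale moved the median log2 ratio of all genes to 0.04 and of the 39 genes to 0.05, so the split is not a result about these genes. With a negative binomial test (edgeR) that uses a common dispersion of 0.00582 estimated from both libraries as replicates, none of the 39 passed, against 1.2% of all genes, and none had an unadjusted p under 0.05, against 7.92% of all genes.

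The 5 genes higher in replicate 1 included 4 helicase subunits. Mcm5 was read at 8463 and 11140 counts, a log2 ratio of replicate 2 to replicate 1 of -0.14 (exact binomial adjusted p = 2.77e-09). Mcm3 had 7755 and 10207 counts, also at -0.14 (exact binomial adjusted p = 1.40e-08). Mcm2 and Mcm4 differed less, at -0.07 each (exact binomial adjusted p = 0.00243 and 0.00729). Mcm6 (-0.01) and Mcm7 (-0.04) did not pass, and differences between the ring's genes were not tested. Pola2, the accessory subunit of polymerase alpha, was at -0.14 (exact binomial adjusted p = 0.000899).

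The 7 genes higher in replicate 2 were Orc2, Orc4, Pola1, Pold1, Pole, Rrm2 and Ccne2. Pola1 had the largest difference of the list, 1456 and 2533 counts, 1.20-fold (exact binomial adjusted p = 5.76e-07). The 2 named alpha subunits thus moved in opposite directions. Ccne2 was 1.16-fold higher (exact binomial adjusted p = 6.62e-07), Orc4 1.14-fold (2.24e-05) and Orc2 1.09-fold (0.0344). Pold1 was 1.13-fold higher in counts (exact binomial adjusted p = 2.61e-07), while its TPM differed less (107 and 111), since its mean transcript length was estimated at 2238 bases in replicate 1 and 2427 in replicate 2. Pole was 1.08-fold higher (0.0241) and Rrm2, with 15683 and 23675 counts, 1.04-fold (0.000521). Each of these log2 ratios was under 0.32.

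**Figure D4:**
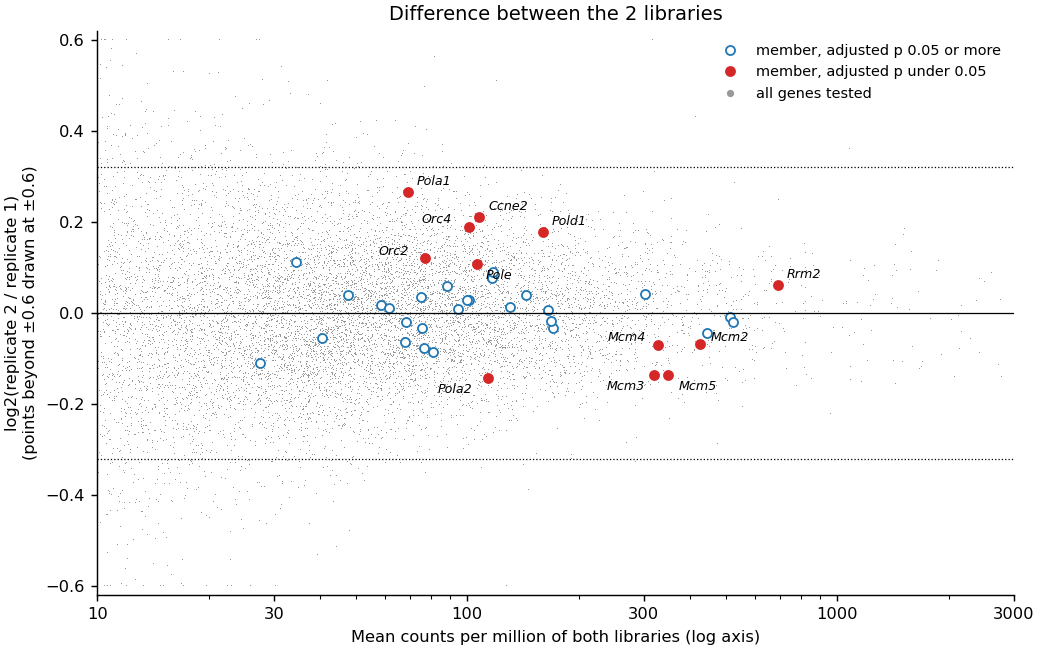
log2 ratio of replicate 2 to replicate 1 against mean CPM (counts scaled to library size; log axis from 10 to 3000) for genes tested (grey points, those beyond 0.6 drawn at 0.6) and the 39 replication genes, filled red where the adjusted p is under 0.05. The 12 red points lie within the dotted lines at a log2 ratio of 0.32 in either direction.

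Transcript tables divide each gene's reads among its annotated transcripts, and 8 of the 39 genes had 1 transcript each. Over the 39 genes the median share of TPM in protein-coding transcripts was 94.4%, and 24 genes had 90% or more. In 36 genes the highest transcript was protein coding, and in 30 it held 60% or more. Transcript types were taken from a later annotation, which held 185 of the 194 transcripts.

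The exceptions were in several complexes. In Gins2 a transcript of 511 bases with a retained intron held 68.7% and 65.1% of TPM, and the protein-coding transcript of 3900 bases 28.8% in replicate 1 and 28.7% in replicate 2. By expected counts, which are not scaled by length, the order was the reverse, with 19.3% for the short transcript and 76.5% for the coding one. In Orc4 a processed transcript of 1477 bases was highest (22.3% and 25.2%), 13 transcripts were listed and coding ones held 28.2% ± 2.8. The level of Orc4, highest of ORC as a gene, was 32.2 ± 5.85 TPM over its coding transcripts, below Orc6 (87.5 ± 2.71 TPM), Orc3 (59.0 ± 2.6 TPM) and Orc2 (39.3 ± 3.82 TPM) counted the same way. In Rfc1 the highest transcript, of 485 bases (34.3% and 30.2%), has no type in the annotation used.

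In 7 further genes the highest transcript was protein coding but held under 60%. Cdc45 had a longer coding transcript at 49.6% and 61.4% and a shorter one at 50.1% and 38.3%, so that their order changed between libraries. Fen1 divided between 3 coding transcripts of 36.4%, 34.6% and 25.3% in the mean. Lig1 had 27.5% and 41.3% in its full-length transcript, a spread as wide as any of the 39 genes' leading transcripts. Mcm10 had 51.2% and 50.8% and Orc3 41.5% and 32.8%, with 34.3% of Mcm10 in retained-intron and 41.7% of Orc3 in processed transcripts. Pold1 had 55.8% and 61.8% and Pole 42.7% and 46.2%, with 30.8% and 37.6% in retained-intron transcripts. By share of expected counts, 5 genes in place of 9 had a highest transcript under 60%, and only Rfc1 had one without a protein-coding type.

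**Figure D5:**
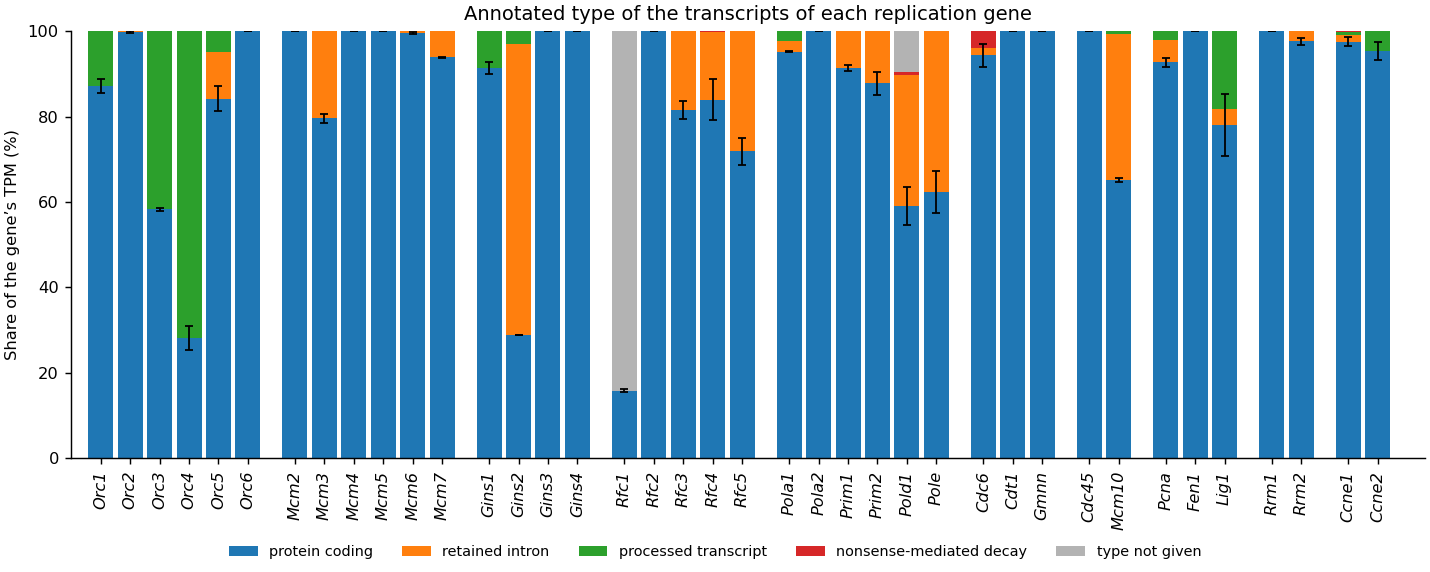
Share of each gene's TPM in transcripts of each annotated type, as the mean of both libraries, with error bars of 1 SD (n = 2) on the protein-coding share. Most bars are blue for protein coding. Gins2 (28.8%), Orc4 (28.2%) and Rfc1 (15.8%) are the lowest, and the other 84.2% of Rfc1 has no type.

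Reads could be shared with other genes in some cases. Expected counts were whole, within 0.005, in 25 of the 39 genes and not whole in 14, against 70.3% whole over all genes tested. On the opposite strand, exons of another gene covered part of 14 of the 39 genes, a share that was not counted over all genes. The part covered was greatest in Fen1 (84.2% of its exon bases, Gm10143 and Tmem258), Gins2 (67.3%, Gse1) and Orc2 (29.8%, Nif3l1). Whether counting used the strand is not given in the sources used here, so the values of all such genes are uncertain where they overlap. The pseudogene Pcna-ps2 was listed at 2.4 TPM in the mean, far below Pcna (336 ± 4.75 TPM).

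A further 45 genes of replication, fixed as a list, gave the setting. All 45 were at 1 TPM or more in both libraries, with a median of 69.1 ± 3.65 TPM. The library test was passed by 13, against 23.5% of all genes tested and 34.9% of genes with 1000 or more counts. Of these, 3 were higher in replicate 1 (11.4% of all genes) and 10 in replicate 2 (12.1% of all genes), none by 1.5-fold or more. Neither the count nor the split was tested against these backgrounds. Highest were Ccna2, the S-phase cyclin (263 ± 0.856 TPM), Dut (220 ± 9.79 TPM) and Tyms (219 ± 0.354 TPM), which keep uracil low and make thymidylate, and Tipin (203 ± 2.99 TPM), of the fork protection complex. Lowest were Mcm9, an MCM relative outside the ring (5.01 ± 0.297 TPM), and Pold4, the smallest delta subunit (5.95 ± 0.658 TPM). The low level of Mcm9 and of its partner Mcm8 (24.0 ± 2.04 TPM) set these relatives apart from Mcm4, the lowest ring gene, which exceeded them 28.5 ± 2.66 and 5.98 ± 0.712 times. As genes, Pold2 (103 ± 0.156 TPM) and Pold3 (98.1 ± 1.24 TPM) were near Pold1 (109 ± 3.03 TPM). Of the other epsilon subunits Pole2 was lower than Pole as a gene (27.4 ± 1.32 TPM) and Pole3 and Pole4 were higher (105 ± 1.62 and 78.4 ± 1.69 TPM). Over coding transcripts Pold1 had 74.65 ± 4.77 TPM and Pole 24.5 ± 1.61 TPM. That measure is not given here for the other subunits, so these orders hold for gene levels only. In a list of 20 mitosis genes the median was 135 ± 2.03 TPM, from Cenpe at 41.3 ± 1.66 to Cdk1 at 364 ± 17.7 TPM.

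The libraries held 23165223 and 33597022 expected counts over annotated genes, so the lowest count of a member was 1550 over both. All 6 telencephalon genes were detected at 1 TPM or more in both libraries, with Lhx2 highest (147 ± 10.9 TPM). So were all 4 genes of each list of red cells, mesenchyme, endothelium and microglia, so detection alone does not mark the tissue. The telencephalon genes summed to 461 ± 23.0 TPM, below the sums of the red cell and mesenchyme lists. Progenitor genes were led by Vim (1013 ± 3.95 TPM). The list of newborn neurons was led by Tubb3 (506 and 439 TPM), and that of embryonic red cells by Hbb-y (8076 and 8726 TPM). Mesenchyme genes summed to 565 ± 7.74 TPM (highest Col3a1, 310 ± 13.9 TPM), endothelium genes to 66.2 ± 2.26 TPM (highest Kdr, 22.6 ± 0.028 TPM) and microglia genes to 39.8 ± 4.07 TPM (highest C1qb, 16.1 ± 0.813 TPM). Hox genes of hindbrain and trunk were at or below 0.16 TPM in each library (highest Hoxb5), Alb was listed at 0 in both, and Apoa1, the highest liver gene, had 0.84 ± 0.099 TPM. Red cell precursors and mesenchyme also divide, and their part in the levels of the replication genes was not tested.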

How the data were processed

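Total RNA was measured in 2 libraries of 1 group. Per the submitters' processing notes the reads were placed on mm10 with GENCODE M4. The sources used here name no aligner, no quantifier and no strand setting. The deposited expected counts divide ambiguous reads between transcripts and need not be whole, and they were rounded for tests. The deposited TPM are scaled by length over all entries, spike-ins included (12.7% to 13.0% of TPM), and the deposited FPKM are scaled by length and library depth. A posterior mean TPM is a further column, per the file headers.

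Names, types and coordinates came from GENCODE M21 (GRCm38) by stable identifier, which matched 42462 of 43346 annotated genes (98.0%). Library sizes and tests used annotated genes only, without the 97 spike-in entries and 26248 entries that carry a bare number. Libraries were scaled with TMM (edgeR 4.0.16, R 4.3.3) and compared per gene by an exact two-sided binomial test (SciPy 1.17.1) with Benjamini-Hochberg adjustment; log2 ratios add 0.5 counts. DESeq2 1.42.0 size factors, total counts, spike-ins, no count filter and a negative binomial test were alternatives. Counts were simulated for this comparison with counting error only (18262 genes). Recovered were 95% of 100 genes changed 1.25-fold and 26% of 100 genes changed 1.1-fold, and 0.017% of unchanged genes were called. Variation between pools beyond counting was not simulated, so these shares do not measure the error rate in the data. The exact binomial p-values measure departure from counting error only and hold no estimate of the spread between samples. The replicates share a strain and a donor label, so differences between these samples may be technical. No molecular identifiers are described.

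Complexes were compared by the median of log2(TPM + 1) per library, without a test. The members and lists were chosen with earlier results of these data known. All members are named with a level; values in both libraries are given for the highest and lowest of each complex and for members past the test, transcripts where the highest held under 60% or was not protein coding, 4 highest and 2 lowest of the further replication genes, and the highest marker of each list. Other genes named from the further list (Rrm2b, Mcm8, Pold2, Pold3, Pole2, Pole3 and Pole4) and the ends of the mitosis list were chosen after their values were seen. Protein sequences were not analysed here.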

Additional observations from a re-analysis of the deposited data

How the results depend on the processing

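The difference of each complex from MCM2-7 kept its direction under every alternative run. Without replicate 1 or without replicate 2, ORC minus MCM2-7 ranged from -1.83 to -1.61, MCM2-7 minus GINS from 1.39 to 1.46, MCM2-7 minus RFC from 0.64 to 0.71 and MCM2-7 minus polymerases from 1.71 to 1.75 (median log2(TPM + 1)). With the mean over members in place of the median, ORC minus MCM2-7 was -1.89, MCM2-7 minus GINS 1.82 and MCM2-7 minus polymerases 1.84. Without Rfc1, MCM2-7 minus RFC was 0.43. With transcripts of non-coding types left out (untyped ones kept), an alternative chosen after seeing the data, ORC minus MCM2-7 was -2.26, MCM2-7 minus GINS 2.18 and MCM2-7 minus RFC 0.81. ORC minus polymerases changed sign with the mean over members (-0.053), without replicate 2 (-0.083, against 0.096 without replicate 1) and with non-coding types left out (-0.56), and the last also reversed GINS minus polymerases (-0.48). The count of 12 members past the library test was 12 to 14 under 3 other scalings (23.5% to 25.0% of all genes) and 10 without a count filter (7.85% of all genes). It was 0 with the negative binomial test (1.20% of all genes, lowest adjusted p of a member 0.834, by edgeR) and 0 with a log2 ratio of 0.32 or more, where fewer genes can pass by construction. By share of expected counts, 1 in place of 3 members had a highest transcript not typed as protein coding, and 5 in place of 9 had one under 60%. That 1 member was Rfc1, whose highest transcript has no type in the annotation used. Posterior mean shares moved neither transcript count by over 1.5 times. An E2F word was found in 9 of 30 genes (30%) in the 250 bases before the RefSeq start, against 583 of 27025 genes (2.16%). Of all results and alternatives, 171 kept their value or call, 37 moved, 4 reversed and 4 gave a count smaller by over 1.5 times. A level or difference was held as kept where it shifted by no more than the SD of the 2 libraries. Leaving out 1 of 2 libraries shifts their mean by less than that SD by construction. Those alternatives could change label only by a change of sign, so the tally does not measure robustness. No paired analysis was possible because the series has 1 group. The comparison of protein features was not run. The library test needs both libraries, so it was not run without either.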

Other observations

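Several replication genes start close to a protein-coding gene on the opposite strand. A start on the opposite strand within 1000 bases, running away from the member or overlapping its start, was annotated for 10 of 39 members (25.6%), against 10.9% of 21951 protein-coding genes of GENCODE M21. Levels within these pairs ranged from close to far apart, and their relation was not tested. Prpf38a, a spliceosome gene whose start lies 87 bases from that of Orc1, had 93.9 and 98.6 TPM beside 16.7 and 15.2 TPM for Orc1. Prkdc, the DNA-dependent protein kinase gene 466 bases from Mcm4, had 10.9 and 12.4 TPM beside 146 and 139 TPM for Mcm4. Ap4m1, an adaptor subunit gene whose start overlaps the Mcm7 locus, had 19.6 and 20.1 TPM beside 293 and 294 TPM for Mcm7. Rars2, 13 bases from Orc3, had 58.4 and 65.2 TPM beside 97.8 and 105 TPM for Orc3. Ufd1, whose start overlaps that of Cdc45, had 66.2 and 76.9 TPM beside 64.5 and 59.7 TPM for Cdc45. Abhd12, 659 bases from Gins1, had 46.2 and 43.4 TPM beside 66.4 and 63.7 TPM for Gins1. Vps35, whose start overlaps that of Orc6, had 140 and 141 TPM beside 85.6 and 89.4 TPM for Orc6. Mbd5, which overlaps Orc4, had a mean of 20.0 TPM, and Pxmp2, 120 bases from Pole, had 8.51 and 9.62 TPM. Overlapping pairs such as Fen1 with Tmem258 (254 and 261 TPM) can share reads if strand was not used in counting, and their part in each other's level was not tested. These genes were chosen after their values were seen.

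Across the 39 members, mean TPM and mean transcript length had a Spearman rho of -0.16, and across 12581 protein-coding genes at 1 TPM or more in both libraries -0.26; genes are not independent replicates and share both libraries.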
